A study of Mus musculus with 6 samples.

Results

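The genes described here are the protein-coding neighbours of *Slc39a8*, the gene that was floxed and removed in neurons. They were chosen by position alone, as every protein-coding gene whose annotated start lies on chromosome 3 of GRCm38 between 130825279 and 140888572, which is 5 Mb on either side of *Slc39a8*. The window held 50 such genes among the 53715 genes of the table, 25 on each side, and *Slc39a8* itself was left out. RNA was measured by sequencing in the cerebellum of 3 control and 3 *Slc39a8*-NSKO (neuron-specific knockout) male C57BL/6 mice at 4 weeks of age. In *Slc39a8*-NSKO mice a Cre recombinase under the synapsin I promoter recombines the floxed *Slc39a8* alleles in neurons, so glia and vessels keep the intact gene, and the study notes that this driver may vary between brain regions. The floxed and the Cre parent lines were both on a C57BL/6J background. The sample labels call the controls WT, the study's methods for RNA sequencing do not give their genotype, and elsewhere the study speaks both of wild-type mice and of *Slc39a8* fl/fl controls. If the controls were floxed, both groups carry the targeted chromosome 3, and if they were wild type, only *Slc39a8*-NSKO mice do. The gene counts hold no allele, and the 2 cases cannot be told apart here.

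Neighbours of an engineered gene are examined for 2 general reasons. A targeted allele is inherited with the stretch of chromosome around it, so alleles of the strain in which it was made can remain linked to it as passengers, and they may differ in expression from those of the host strain. Inserted recombination sites, a removed exon, or a lost regulatory element can also alter transcription of genes nearby. *Slc39a8* encodes ZIP8, a transporter that imports manganese, zinc, and iron, and its flanks hold genes of unrelated function, from *Nfkb1* and *Bank1* at its borders to calcineurin, an alcohol dehydrogenase cluster, and translation factors farther out. The comparison asks whether RNA from these genes differed between the genotypes.

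Promoters of the neighbours with sequence at hand show the range of start sites in this region. The 250 bases before the start of *Slc39a8* and of 2 genes on each side are given 5′ to 3′ on the gene's own strand. The 2 genes are the nearest on their side with an entry within 250 bases of the annotated start and no annotated exon in the stretch. All stretches come from RefSeq on GRCm38.p6, with each CG dinucleotide in capitals. They are *Slc39a8* (chr3:135825029-135825278, plus strand), *Manba* (chr3:135485361-135485610, plus), *Slc9b1* (chr3:135347779-135348028, plus), *Bank1* (chr3:136326067-136326316, minus), and *Dnajb14* (chr3:137867425-137867674, plus).
Slc39a8: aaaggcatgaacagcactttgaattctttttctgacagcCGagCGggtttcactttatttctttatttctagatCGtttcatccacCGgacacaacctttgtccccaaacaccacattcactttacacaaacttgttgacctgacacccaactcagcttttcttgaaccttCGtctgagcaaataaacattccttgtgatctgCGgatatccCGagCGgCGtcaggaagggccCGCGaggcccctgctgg
Manba: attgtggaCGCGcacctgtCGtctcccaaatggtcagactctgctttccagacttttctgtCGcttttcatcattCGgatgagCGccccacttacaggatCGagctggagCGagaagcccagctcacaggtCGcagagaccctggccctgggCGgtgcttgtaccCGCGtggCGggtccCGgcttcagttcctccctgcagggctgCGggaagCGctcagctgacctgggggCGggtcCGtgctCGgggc
Slc9b1: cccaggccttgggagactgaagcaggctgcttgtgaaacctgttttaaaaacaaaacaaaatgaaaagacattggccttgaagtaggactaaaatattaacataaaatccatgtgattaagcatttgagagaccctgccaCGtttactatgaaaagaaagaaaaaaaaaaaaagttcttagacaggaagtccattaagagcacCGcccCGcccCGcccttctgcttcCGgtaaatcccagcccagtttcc
Bank1: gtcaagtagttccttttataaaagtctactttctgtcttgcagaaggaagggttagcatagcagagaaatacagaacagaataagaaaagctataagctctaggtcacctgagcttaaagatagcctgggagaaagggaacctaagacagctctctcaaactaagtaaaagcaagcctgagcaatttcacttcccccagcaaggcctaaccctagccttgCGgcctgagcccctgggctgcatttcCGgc
Dnajb14: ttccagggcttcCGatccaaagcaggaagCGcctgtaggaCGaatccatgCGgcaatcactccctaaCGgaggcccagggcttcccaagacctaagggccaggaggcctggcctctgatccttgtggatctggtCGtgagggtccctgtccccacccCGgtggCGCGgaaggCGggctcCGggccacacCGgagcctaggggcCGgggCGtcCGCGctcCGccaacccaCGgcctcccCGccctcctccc

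The stretch before *Manba* and that before *Dnajb14* held 19 CG dinucleotides each, *Slc39a8* held 11, *Slc9b1* held 5, and *Bank1* held 2. *Manba* and *Dnajb14* were among the genes with enough counts to be tested, and *Slc9b1* and *Bank1* were not. An entry within 250 bases of the annotated start was found for 37 of the 50 genes. In the 25 of these that were tested the number of CG dinucleotides had a median of 18 (range, 1 to 33). In the 12 that were not tested it had a median of 4.5 (range, 1 to 26). Over all 32851 promoters of the RefSeq set the median was 6. That set was not limited by gene type, expression, or distance to an annotated start, so it is not a matched background for these genes. The same limit holds for the shares of all promoters that follow. The full cAMP response element, TGACGTCA, which reads the same on both strands, was found before *Tbck* and *Cenpe*, or 5.41% of the 37 promoters, and in 1.55% of all promoters. Its first part, TGACG on either strand, which also counts every full element, was found in 8 of the 37 (21.6%), before *Slc39a8*, and in 17.8% of all promoters. These are letter matches, and factor binding was not measured.

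Between 14431245 and 20844248 counts were assigned to genes in each mouse, and the 50 neighbours took between 0.234% and 0.246% of them. Levels are given in CPM, counts scaled to TMM-normalized library size. Of 16330 genes tested with edgeR's quasi-likelihood test, 16 (0.098%) had an adjusted p below 0.05. Markers of the labelled tissue were high in all mice, with summed levels from 3765 to 4146 CPM for 5 granule cell genes and from 6308 to 7500 CPM for 5 Purkinje cell genes. Endothelial markers (5 genes) summed to between 121 and 135 CPM in control and between 118 and 132 CPM in *Slc39a8*-NSKO mice. Microglia markers (4 genes) ranged from 48.1 to 54.0 CPM in control and from 56.5 to 60.9 CPM in *Slc39a8*-NSKO mice, and none of them passed the threshold. Choroid plexus markers (3 genes) ranged from 741 to 1507 CPM and striatal and cortical markers (5 genes) from 9.25 to 13.0 CPM. Both sums overlapped between the groups. By gene, *Folr1* of the choroid plexus (means of 2.33 in control and 4.57 CPM in *Slc39a8*-NSKO mice) and the untested *Drd1* were higher without overlap. *Neurod6* (7.17 and 5.185 CPM) was lower without overlap. Of all genes tested, 10.3% did not overlap, and 0 genes of these lists had an adjusted p below 0.05 in edgeR's test. Heart muscle markers (5 genes) ranged from 2.57 to 3.75 CPM in control and from 11.1 to 13.5 CPM in *Slc39a8*-NSKO mice, with 3 of the 5 higher at an adjusted p below 0.05 in edgeR's test. No marker of these lists was at 0 in all mice. The part of these cell types in the values below was not tested, and in bulk tissue fewer cells of a type and less RNA per cell cannot be told apart.

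The targeted gene was lower in every *Slc39a8*-NSKO mouse. *Slc39a8* (ENSMUSG00000053897.15, chromosome 3 from 135825279 to 135888572, plus strand) was at 4.77, 3.20, and 2.82 CPM in control mice 1 to 3 and at 1.90, 2.05, and 2.18 CPM in *Slc39a8*-NSKO mice 1 to 3. Its log2 fold change was −0.83 (SE 0.237; 95% interval, −1.34 to −0.32), and in edgeR's quasi-likelihood test its unadjusted p was 0.00359 and its adjusted p 0.534, which did not pass. Without control mouse 1 it was −0.56. Reads from exons that recombination leaves in place still count toward the gene, and cells without Cre keep it, so the value is not a measure of recombination.

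None of the 50 neighbours passed the threshold. Enough counts for the test were found for 35 of them, and 0 of the 35 had an adjusted p below 0.05 from edgeR's quasi-likelihood test, against 0.098% of all genes (0.0735% lower and 0.0245% higher). The lowest adjusted p was 0.860. DESeq2's Wald test gave 0 of the 45 genes with any count, and limma-voom 0 of 35. An unadjusted p below 0.05 was found for 1 neighbour, *Nfkb1* (2.86% of the 35), against 5.39% of all genes tested (3.14% lower and 2.25% higher), and with DESeq2 for 0. Control and *Slc39a8*-NSKO values did not overlap in 2 neighbours, *Nfkb1* (lower) and *Adh1* (higher), or 5.71%, against 10.3% of all genes (5.26% lower and 5.07% higher). The median log2 fold change was −0.019 in the 35 neighbours, with 20 below and 15 above 0, and 0.0011 in all genes.

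For 27 of the 35 (77.1%), the 95% interval of the log2 fold change lay within 0.5 of 0, so that a level under 70.7% or over 141% of control fell outside it. Of all genes tested, 69.5% had such an interval. Of the other tested protein-coding genes of chromosome 3, 78.3% had one. All 23 neighbours with a mean of at least 10 CPM were among the 27, and of all genes with such a mean 97.9% had an interval within 0.5 of 0. For 16 of the 35 neighbours the interval lay within 0.25 of 0, as it did for 6710 of all 16330 genes tested. These intervals are for each gene on its own and are not adjusted for the number of genes.

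Log2 fold changes of both signs were found on each side of *Slc39a8*. On the upstream side, at lower coordinates, 20 genes were tested with a median log2 fold change of −0.048 and a range from −0.37 to 0.16. On the downstream side, 15 genes were tested with a median of 0.013 and a range from −0.26 to 0.70. By the gap between gene bodies, the median was −0.053 for 8 genes within 1 Mb, 0.035 for 5 genes between 1 and 2 Mb, and −0.017 for 22 genes farther out. The 39 tested protein-coding genes beyond the window, up to 10 Mb away, had a median of −0.011, with 0 at an adjusted p below 0.05 and 2 at an unadjusted p below 0.05 in edgeR's test. These 2 were *Ccn1*, at −0.91 (95% interval, −1.39 to −0.43; adjusted p = 0.321), and *Ddah1*, at 0.12 (0.0018 to 0.24). All 640 tested protein-coding genes of chromosome 3 outside the 5 Mb window, these 39 included, had a median of 0.0075, and control and *Slc39a8*-NSKO values did not overlap in 9.53% of them. These medians are descriptions, and no difference between the distances was tested.

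**Figure D1:**
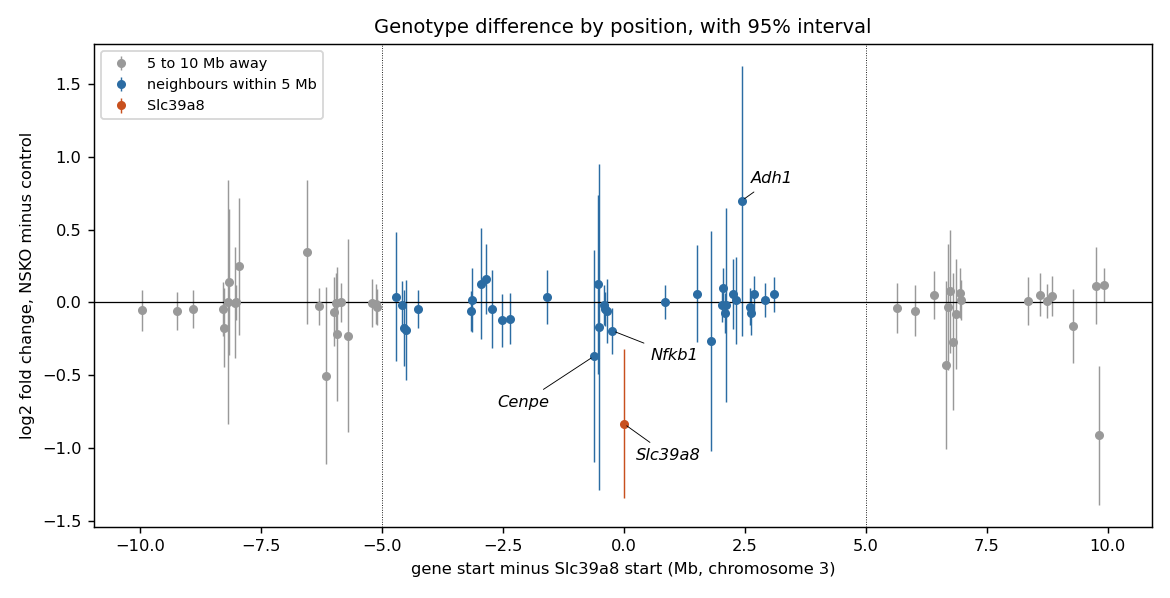
Log2 fold change of *Slc39a8*-NSKO against control for each tested protein-coding gene (y axis) by the distance of its start from the start of *Slc39a8* in Mb (x axis), with bars for the 95% interval of edgeR's fit. *Slc39a8* (orange) sits at −0.83, the 35 neighbours within 5 Mb (blue) lie between −0.37 and 0.70, and of their bars only that of *Nfkb1* stays off 0. Grey points are the 39 tested genes from 5 to 10 Mb away, between −0.91 (*Ccn1*) and 0.34. Of the grey bars, those of *Ccn1* and *Ddah1* stay off 0.

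The gene bodies that border *Slc39a8* are *Nfkb1* on the upstream and *Bank1* on the downstream side. *Nfkb1* (ENSMUSG00000028163.17, chromosome 3 from 135584655 to 135691547, minus strand, 134 kb away) encodes p105, the precursor of the p50 subunit of the transcription factor NF-κB. It was at 30.9, 32.5, and 28.9 CPM in control mice 1 to 3 and at 27.8, 25.8, and 27.1 CPM in *Slc39a8*-NSKO mice 1 to 3. Every *Slc39a8*-NSKO mouse was below every control mouse, with means of 30.8 ± 1.78 and 26.9 ± 0.993 CPM (SD, n = 3 each), or 87.3% of control. The log2 fold change was −0.19 (SE 0.0738; 95% interval, −0.35 to −0.036), and in edgeR's quasi-likelihood test the unadjusted p was 0.0200 and the adjusted p 0.860, so it did not pass. An exact two-sided permutation test gave p = 0.1, the smallest that 3 mice against 3 allow. Its counts were whole numbers in all mice. *Bank1*, an adaptor of B cell receptor signaling 165 kb on the other side, had counts of 5, 1, and 5 (control) and 1, 1, and 3 (*Slc39a8*-NSKO). That is too few to test, and the groups overlapped, so a difference in *Bank1* was not detectable at this depth.

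The next genes on the upstream side overlapped between the genotypes. *Manba*, which encodes the lysosomal β-mannosidase and lies 254 kb from *Slc39a8*, was at 17.1, 20.2, and 18.2 CPM in control and at 19.6, 17.4, and 16.1 CPM in *Slc39a8*-NSKO mice (log2 fold change −0.059; 95% interval, −0.28 to 0.16). *Ube2d3*, a ubiquitin-conjugating enzyme gene 357 kb away, was at 278, 283, and 292 CPM in control and at 293, 267, and 267 CPM in *Slc39a8*-NSKO mice. *Slc39a8*-NSKO mouse 1 was thus above all controls and the other two were below them, and the log2 fold change was −0.046 (95% interval, −0.16 to 0.070). The counts of *Ube2d3* were not whole in any mouse, and its exons overlap the antisense gene 4930539J05Rik. *Cisd2*, whose product is an iron-sulfur protein of the endoplasmic reticulum and mitochondria, was at 65.9, 68.6, and 75.4 CPM in control and at 70.5, 68.0, and 68.3 CPM in *Slc39a8*-NSKO mice. Its log2 fold change was −0.020 (95% interval, −0.16 to 0.12).

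The first tested gene on the downstream side was also the one with the most counts. *Ppp3ca*, 782 kb away, encodes the catalytic subunit of calcineurin, a calcium-dependent phosphatase of neurons. It was at 755, 749, and 741 CPM in control and at 802, 738, and 709 CPM in *Slc39a8*-NSKO mice, and the control values lay inside the range of the *Slc39a8*-NSKO values. With a log2 fold change of 0.0026 (95% interval, −0.11 to 0.12), it had the highest p of the 35 genes. *Emcn*, which encodes the endothelial surface protein endomucin, was at 4.53, 4.51, and 4.36 CPM in control and at 4.50, 4.87, and 4.62 CPM in *Slc39a8*-NSKO mice. *Ddit4l*, a stress-induced inhibitor of mTOR signaling, had counts of 27, 13, and 12 (control) and 17, 19, and 13 (*Slc39a8*-NSKO). Its interval ran from −1.02 to 0.49 on the log2 scale, so a value as low as that of *Slc39a8* was not outside it. *H2afz*, the gene of the histone variant H2A.Z, was at 173, 190, and 172 CPM in control and at 173, 183, and 173 CPM in *Slc39a8*-NSKO mice (log2 fold change −0.015; 95% interval, −0.14 to 0.11). Its counts were not whole in any mouse, and its value is uncertain to that extent.

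**Figure D2:**
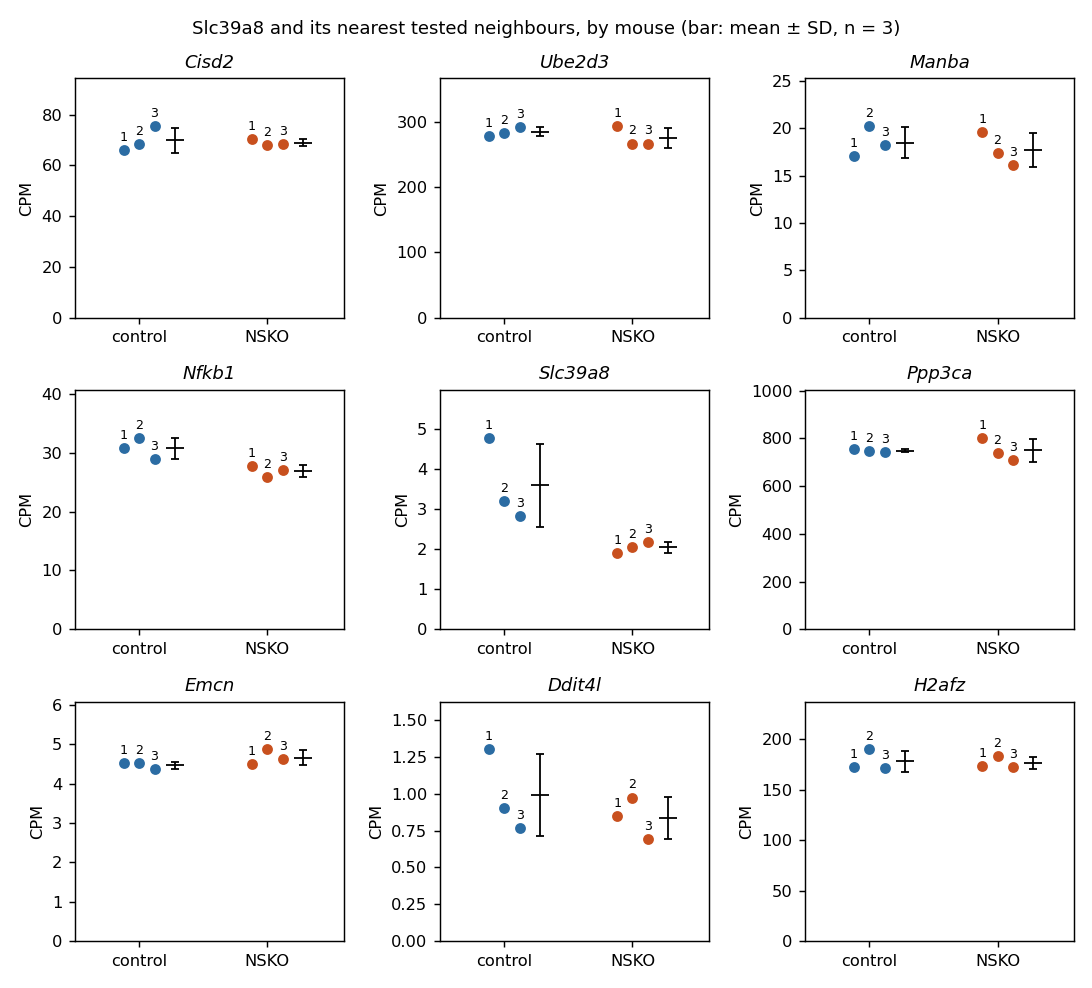
CPM of *Slc39a8* and of the 4 nearest tested genes on each side in the 3 control (blue) and 3 *Slc39a8*-NSKO (orange) mice, numbered by replicate, with the mean and SD in black and each y axis starting at 0. The genotypes do not overlap for *Slc39a8* and *Nfkb1*, and they overlap in the other 7 panels.

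Of the genes for NF-κB and immune signaling, 2 of 3 were tested and 0 passed. Beside *Nfkb1*, *Dapp1*, an adaptor of B cell signaling, had counts of 27, 15, and 14 (control) and 21, 20, and 22 (*Slc39a8*-NSKO), with a mean of 1.08 CPM in both. For *Dapp1* the 95% interval was wide, from −0.68 to 0.65 on the log2 scale. Of the Wnt signaling genes, 2 of 3 were tested and 0 passed. *Lef1*, a transcription factor of the pathway, had a log2 fold change of 0.040 and *Cxxc4*, an inhibitor of it, one of 0.035. Control mouse 2 had the lowest level of both, with 2.64 CPM for *Lef1* and 26.2 CPM for *Cxxc4*. The counts of *Lef1* were not whole in any mouse, and its exons share 1208 bases with the antisense gene Gm43352. Exons of *Cxxc4* share 243 bases with the antisense gene Gm26691. The inhibitor gene *Dkk2* had at most 6 counts in a mouse.

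The alcohol dehydrogenase cluster holds 6 genes of the window, of which 2 were tested and 0 passed. *Adh5*, which acts on glutathione-bound formaldehyde in most tissues, was at 62.7, 65.2, and 63.1 CPM in control and at 60.2, 61.5, and 65.0 CPM in *Slc39a8*-NSKO mice (log2 fold change −0.032; 95% interval, −0.16 to 0.095). *Adh1*, an ethanol and retinol dehydrogenase, had counts of 11, 4, and 6 (control) and 12, 16, and 11 (*Slc39a8*-NSKO). Its values did not overlap on the CPM scale, with 0.530, 0.278, and 0.385 CPM in control and 0.600, 0.821, and 0.584 CPM in *Slc39a8*-NSKO mice. *Adh1* thus had a log2 fold change of 0.70 (SE 0.430; 95% interval, −0.23 to 1.62), the largest of the 35, and its adjusted p in edgeR's quasi-likelihood test was 0.992. Its exons overlap the antisense gene Gm16559. *Adh7* had 0 counts in each control mouse and 2, 2, and 1 counts in *Slc39a8*-NSKO mice, all within the 3 counts that a count of 0 allows. *Adh4*, *Adh6a*, and *Adh6b* were at 0 in all 6 mice, with the same limit.

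The genes grouped as translation and RNA were all tested, and 0 of 6 passed, with log2 fold changes between −0.074 (*Metap1*) and 0.16 (*Gstcd*). *Gstcd* was placed in this list by grouping alone, without a stated role in either process, and the next highest value was 0.0605 for *Eif4e*. *Eif4e*, which encodes the protein that binds the mRNA cap, was at 91.3, 91.9, and 99.4 CPM in control and at 98.4, 98.8, and 97.4 CPM in *Slc39a8*-NSKO mice, and control mouse 3 was above the other five. *Metap1*, a methionine aminopeptidase gene, was at 34.9, 36.5, and 39.4 CPM in control and at 35.1, 34.1, and 35.9 CPM in *Slc39a8*-NSKO mice.

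Several neighbours lie head to head and overlap at their starts. *Gstcd* and *Ints12*, a subunit gene of the Integrator complex, share 100 bases of exon on opposite strands. *Gstcd* had counts of 203, 152, and 160 (control) and 240, 205, and 219 (*Slc39a8*-NSKO), and in CPM its only overlap was between control mouse 2 (10.56) and *Slc39a8*-NSKO mouse 2 (10.51). For *Gstcd* this gave a log2 fold change of 0.16 (95% interval, −0.079 to 0.40). *Ints12* had a log2 fold change of −0.047 and its highest level, 16.3 CPM, in control mouse 1. *Aimp1*, a scaffold of tRNA synthetases, and *Tbck*, a kinase-like gene, share 163 bases and had log2 fold changes of −0.061 and 0.014. *Mttp*, a lipid transfer protein gene, and *Trmt10a*, a tRNA methyltransferase gene, share 457 bases and had log2 fold changes of 0.059 and 0.013. For these pairs, reads in the shared bases can be assigned to either gene if strand was not used in counting, which the sources used here do not state.

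Of the genes for mitochondria and metabolism, all 6 were tested and 0 passed, with log2 fold changes between −0.12 and 0.12. *Ppa2*, the mitochondrial pyrophosphatase gene, was at 24.9, 28.5, and 27.3 CPM in control and at 22.9, 26.5, and 24.4 CPM in *Slc39a8*-NSKO mice (log2 fold change −0.12; 95% interval, −0.30 to 0.055). *Hadh*, a gene of fatty acid oxidation, had one of −0.019 and *Papss1*, which makes the sulfate donor for sulfation, one of −0.049. *Bdh2*, a dehydrogenase gene with 24 to 39 counts in a mouse, had a log2 fold change of 0.12 with an interval from −0.49 to 0.74.

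Among genes for membrane lipids and lysosomes, 3 of 3 were tested and 0 passed, with values below 0 in each. *Sgms2*, a sphingomyelin synthase gene, was at 6.56, 8.27, and 5.78 CPM in control and at 6.10, 6.46, and 5.41 CPM in *Slc39a8*-NSKO mice, and control mouse 2 stood above the others (log2 fold change −0.19; 95% interval, −0.53 to 0.15). *Lamtor3*, a scaffold of MAPK and mTOR signaling on lysosomes, was at 49.9, 53.7, and 51.0 CPM in control and at 50.3, 50.1, and 46.6 CPM in *Slc39a8*-NSKO mice (log2 fold change −0.071).

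Of the genes grouped as protein turnover and folding, 3 of 3 were tested and 0 passed. *Dnajb14*, a co-chaperone gene, was at 141, 119, and 126 CPM in control and at 143, 136, and 134 CPM in *Slc39a8*-NSKO mice. Control mice 2 and 3 were below all *Slc39a8*-NSKO mice and control mouse 1 was not, with a log2 fold change of 0.099 (95% interval, −0.041 to 0.24). Exons of *Dnajb14* share 170 bases with the pseudogene Gm15460 on the same strand, and its counts were whole numbers in all mice. *Cyp2u1*, a cytochrome P450 gene that was placed in this list although its product is an oxidase, was at 9.54, 11.5, and 10.7 CPM in control and at 9.10, 10.1, and 8.81 CPM in *Slc39a8*-NSKO mice (log2 fold change −0.18; 95% interval, −0.44 to 0.082). Its exons overlap the antisense gene 4930534D22Rik, and some of its counts were not whole.

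Of the genes for chromatin and cell division, 3 of 3 were tested and 0 passed. *Tet2*, which oxidizes methylcytosine, was at 36.2, 33.6, and 36.5 CPM in control and at 29.1, 34.0, and 35.4 CPM in *Slc39a8*-NSKO mice, with the lowest value in *Slc39a8*-NSKO mouse 1 (log2 fold change −0.11; 95% interval, −0.29 to 0.064). *Cenpe*, a mitotic kinesin gene, had counts of 22, 19, and 17 (control) and 23, 17, and 12 (*Slc39a8*-NSKO). At that depth its log2 fold change of −0.37 had an interval from −1.10 to 0.36, and it was −0.60 without *Slc39a8*-NSKO mouse 1 and −0.18 without *Slc39a8*-NSKO mouse 3.

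Genes for calcium and small GTPase signaling included some of the highest levels of the window, with 3 of 4 tested and 0 passing. *Rap1gds1*, an exchange factor for small GTPases, was at 187, 184, and 185 CPM in control and at 207, 186, and 185 CPM in *Slc39a8*-NSKO mice (log2 fold change 0.055; 95% interval, −0.066 to 0.18). As for *Ppp3ca*, *Slc39a8*-NSKO mouse 1 had the highest value. *Arhgef38* had 2 to 7 counts in a mouse and was not tested. Among genes for surface, matrix, and transport, 4 of 6 were tested and 0 passed. *Tspan5*, a tetraspanin gene, was at 171, 157, and 169 CPM in control and at 164, 165, and 175 CPM in *Slc39a8*-NSKO mice (log2 fold change 0.017; 95% interval, −0.10 to 0.14). *Npnt*, a matrix protein gene, had a log2 fold change of 0.13 (95% interval, −0.25 to 0.51), and *Slc9b2*, a sodium-proton exchanger gene with 3 to 17 counts in a mouse, one of −0.17 (95% interval, −1.29 to 0.95).

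**Figure D3:**
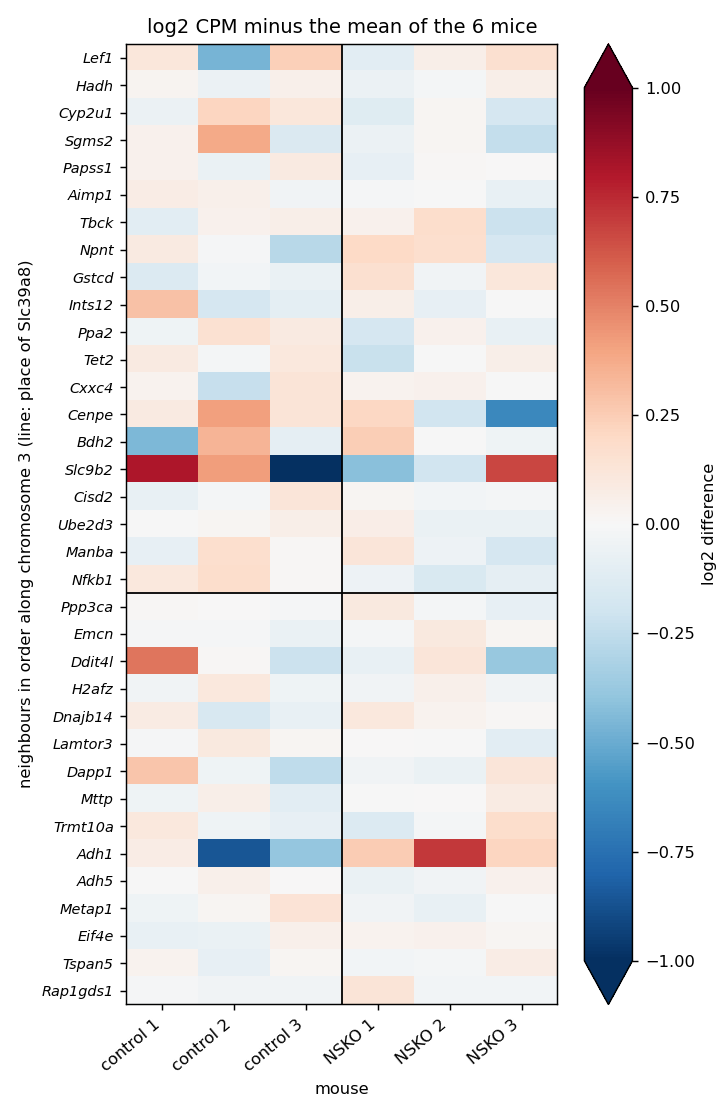
Log2 CPM of each of the 35 tested neighbours, in order along chromosome 3, as the difference from its own mean over the 6 mice (columns, with a vertical line between the genotypes and a horizontal line at the place of *Slc39a8*). The strong colors, which saturate at a difference of 1, belong to genes with few counts such as *Slc9b2* and *Adh1*, and genes with values above and below 0 in *Slc39a8*-NSKO mice are mixed along the chromosome.

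Summarized by mouse, differences of the neighbours from their means had a median near 0, with values of both signs. The mean absolute difference ran from 0.0766 (*Slc39a8*-NSKO mouse 2) to 0.145 (control mouse 2) on the log2 scale. The median difference of the 35 genes from their own means was 0.031, 0.00050, and 0.0038 on the log2 scale in control mice 1 to 3 and −0.014, −0.0036, and −0.0057 in *Slc39a8*-NSKO mice 1 to 3. All 3 control values lay above the *Slc39a8*-NSKO values, with control mouse 2 and *Slc39a8*-NSKO mouse 2 the closest. Over all genes tested, with 0.5 CPM added before the log, the median was 0.0024, 0.0025, and 0.0011 in control mice 1 to 3. In *Slc39a8*-NSKO mice 1 to 3 it was 0.0011, 0.0010, and 0.0045. Such a score over the neighbours was given no test.

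The untested neighbours were at the limit of detection in both genotypes. The 15 genes had at most 12 counts in a mouse, and 5 of them, *Gimd1*, 4930579F01Rik, *Adh4*, *Adh6a*, and *Adh6b*, were at 0 in all mice. *Tacr3*, the neurokinin B receptor gene, had counts of 7, 0, and 1 (control) and 1, 0, and 5 (*Slc39a8*-NSKO). *Stpg2* had counts of 0, 5, and 2 (control) and 0, 0, and 1 (*Slc39a8*-NSKO), and *Gm5105* had 4, 2, and 0 counts in control and 0 counts in every *Slc39a8*-NSKO mouse. These genes were left out of the main fit for their low counts, so no difference was tested for them there. With no filter on low counts, *Gm5105* had an unadjusted p below 0.05 in edgeR's test, and 0 neighbours passed the threshold.

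Per length of merged exons, the tested neighbours spanned a wide range of levels in cerebellum. The level was highest for *H2afz*, with 99.8 CPM per kb as the mean of 6 mice, followed by *Ppp3ca* with 75.1, *Papss1* with 26.1, *Rap1gds1* with 24.99, and *Tspan5* with 22.6 CPM per kb. *Slc39a8* had 0.368 CPM per kb and *Nfkb1* had 2.39 CPM per kb. The lowest levels were those of *Cenpe*, with 0.118 CPM per kb, and *Slc9b2*, with 0.0952 CPM per kb. The genes with the largest log2 fold changes in either direction, *Adh1* and *Cenpe*, were thus among those with the fewest counts.

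**Figure D4:**
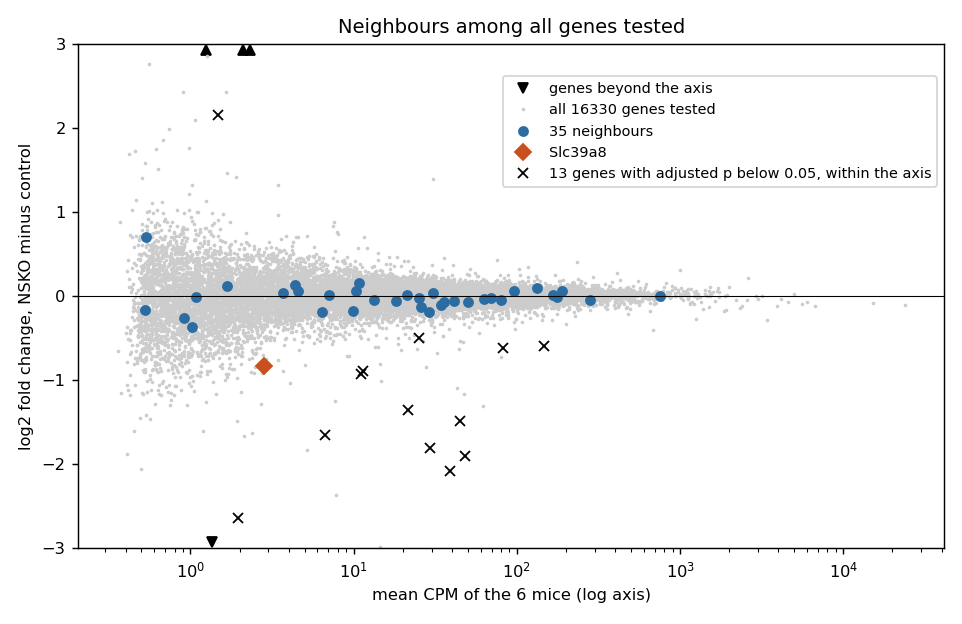
Log2 fold change of *Slc39a8*-NSKO against control (y axis) by mean CPM of the 6 mice (log x axis) for all 16330 genes tested (grey), with the 35 neighbours in blue, *Slc39a8* in orange, crosses for 13 genes with an adjusted p below 0.05, and triangles at the edge for 4 genes beyond a log2 fold change of 3, of which 3 passed as well. The neighbours lie within the grey cloud at every level, and none lies among the crosses.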

How the data were processed

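Cerebellar RNA of 3 control and 3 *Slc39a8*-NSKO mice was reverse transcribed with oligo-dT and sequenced as paired-end reads. The submitters' processing notes name FastQC, STAR, RSEM, DESeq2, and mm10, and versions are not given in the sources used here. The labels name a directional library kit and the paper's methods one without that word. The authors deposited expected counts per gene, estimated from aligned reads with no scaling for library size or gene length. Positions and biotypes came from GENCODE M21 (GRCm38), which held 53620 of the 53715 genes and all 50 neighbours in the same version. The 92 spike-in rows (at most 5 counts per mouse) were left out.

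Counts were rounded and analyzed in R 4.3.3 with edgeR 4.0.16 (TMM, filterByExpr, glmQLFit, glmQLFTest, no covariate), with Benjamini-Hochberg adjustment over all 16330 genes and a threshold of 0.05. SE is the absolute log2 fold change divided by the square root of F, and 95% intervals use the fit's total degrees of freedom. Fold changes are *Slc39a8*-NSKO against control. Library totals ranged from 14431245 to 20844248, and counting noise limits genes with few counts. Any 2 mice differed by more than sampling noise (chi-square per degree of freedom, 4.01 to 9.63). The methods give 3 mice per genotype as biological replicates, whereas a figure legend calls the samples technical triplicates. If the legend is right, n = 3 is not 3 animals and the p values measure only technical spread.

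Named genes were the 4 nearest tested on each side, the 10 with the lowest p, the 5 with the highest CPM, any past the threshold, and 2 to 4 per functional list, and single untested genes were named after their values were seen. The members, lists, and tests were chosen with earlier results of these data known. Alternatives were DESeq2 1.42.0, limma-voom (limma 3.58.1), RLE, filtering genes at a minimum of 10 counts in each of the mice or not at all, counts not rounded, a replicate block, each mouse left out, other windows, and a threshold of 0.1. The tests were tried on simulated data.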

Additional observations from a re-analysis of the deposited data

How the results depend on the processing

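No neighbour passed the threshold in any of the alternatives, including a threshold of 0.1, windows of 1, 2, and 10 Mb, the replicate block, and each mouse left out. The number with an unadjusted p below 0.05 was 0 of 45 with DESeq2 and 2 of 45 with no filter on low counts (*Nfkb1* and *Gm5105*). It was 3 of 74 in the 10 Mb window and 0 to 2 of 35 with a mouse left out. Of all genes, the share was 1.96% with DESeq2, 5.45% with no filter, 5.39% in the main fit that the windows use, and 4.33% to 8.6% with a mouse left out. *Nfkb1* had an unadjusted p above 0.05 without control mouse 2 (0.0785), without *Slc39a8*-NSKO mouse 2 (0.0730), and with DESeq2 (0.0591), and without control mouse 1 *Dnajb14* was below 0.05 beside it. Its log2 fold change stayed between −0.23 and −0.16 with a mouse left out, and over the alternatives its adjusted p ranged from 0.555 to 0.9999. The number of neighbours without overlap was 4 of 45 with no filter and 1 of 33 with at least 10 counts in every mouse. The shares of all genes there were 8.65% and 10.2%. With a mouse left out the number was 4 to 9 of 35, where between 18.4% and 25.6% of all genes did not overlap. The median log2 fold change of the neighbours was −0.053 in the 1 Mb window, which holds 8 tested genes, and −0.041 to −0.0010 with a mouse left out. With a mouse left out, *Cisd2* (−0.063 to 0.038), *Ddit4l* (−0.41 to 0.0082), *H2afz* (−0.043 to 0.033), *Manba* (−0.14 to 0.0072), *Ppp3ca* (−0.047 to 0.042), and *Tspan5* (−0.019 to 0.041) changed sign, none of which had passed. Without a change of sign, *Cenpe* (−0.60 to −0.18), *Sgms2* (−0.29 to −0.045), *Tet2* (−0.17 to −0.030), *Cyp2u1* (−0.25 to −0.12), *Ppa2* (−0.18 to −0.073), *Lamtor3* (−0.094 to −0.037), *Ube2d3* (−0.091 to −0.023), *Rap1gds1* (0.0023 to 0.083), *Emcn* (0.028 to 0.087), and *Dnajb14* (0.046 to 0.17) moved by over 1.5 times. *Slc39a8* stayed between −0.98 and −0.56, with an adjusted p from 0.0764 (no filter) to 0.9999 (DESeq2) over the alternatives. With replicate number as a block, *Slc39a8* was at −0.81 (adjusted p = 0.430 from edgeR's test) and *Nfkb1* at −0.19 (adjusted p = 0.596), and 41 instead of 16 of all genes passed. Same-numbered mice correlated in their deviations from the group means by 0.167, 0.129, and 0.011 for replicates 1 to 3. Pairs of unlike number ran from −0.194 to 0.073, so the pairs of replicates 1 and 2 were the highest. Control mouse 3 did not correlate best with its own number. The main fit treated the samples as sharing only a number, and whether the numbers mark a shared batch was not tested. Of all genes tested, between 9 and 38 passed with a mouse left out (38 without control mouse 1), 178 with no filter, 37 with DESeq2, 12 with limma-voom, and 11 with at least 10 counts in every mouse. The causes of these shifts were not tested.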

Other observations

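The other 127 genes of the window, which are not protein-coding, held 7 with enough counts to test, and 0 of them passed the threshold in edgeR's quasi-likelihood test (0 also at an unadjusted p below 0.05). Their log2 fold changes ranged from −0.25 to 0.29. The other tools were not read out for these genes.

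Genes of the NF-κB system on other chromosomes were read after the values of *Nfkb1* had been seen. Of 7 genes of Rel proteins and IκB inhibitors, 0 had an adjusted p below 0.05 in edgeR's test. *Rel* had a log2 fold change of −0.51 (95% interval, −0.99 to −0.027), *Nfkbia* one of −0.22 (−0.45 to 0.0033), and *Rela* one of −0.16 (−0.32 to 0.013). *Nfkbie* had one of 0.23 (−0.0097 to 0.48) and its 3 *Slc39a8*-NSKO values all lay above its control values, as those of 5.07% of all genes tested did. *Relb*, *Nfkb2*, and *Nfkbib* had log2 fold changes of −0.10, −0.037, and −0.026. Over the 7 genes, the summed level ranged from 112 to 120 CPM in control and from 102 to 109 CPM in *Slc39a8*-NSKO mice. The sum was thus lower in every *Slc39a8*-NSKO mouse, without a test. On its own, each gene but *Nfkbie* overlapped between the genotypes. That includes *Rela* (means of 34.3 CPM in control and 30.8 CPM in *Slc39a8*-NSKO mice) and *Nfkbia* (33.9 and 29.0 CPM). Among all single genes tested, 10.3% did not overlap, and no such share was computed for sums. A shift of the NF-κB system as a whole cannot be read from this sum.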
